A study of Mus musculus with 6 samples.

Results

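The growth hormone (GH) and IGF axis of the liver was followed through 10 genes in livers of mice overdosed with acetaminophen (APAP) and of mice given saline. The genes were taken by symbol from the table of read counts and comprise the GH receptor (Ghr), Igf1, the acid-labile subunit (Igfals), 4 IGF binding proteins (Igfbp1, Igfbp2, Igfbp3 and Igfbp4) and 3 genes of the SOCS family (Socs2, Socs3 and Cish). They are 10 of the 34745 genes listed, and 10 of 10 passed the filter on low counts, which left 13734 genes. The APAP group received 300 mg/kg APAP by i.p. injection and the livers were taken 12 hours later, and the control group received saline. Every sample is labelled WT, and the study's Methods name male C57BL/6J mice aged 8 to 10 weeks, fasted for 12 hours before the injection. Of 3 samples per group, 2 APAP libraries (ApAp1 and ApAp3) and 3 saline libraries (WT1, WT2 and WT3) were used. APAP replicate 2 was not analysed here. The names WT1 to WT3 give no treatment. They were taken for saline since the remaining libraries carry the drug's name, and all differences below depend on this assignment.

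GH from the pituitary binds its receptor on hepatocytes and activates the kinase JAK2, which phosphorylates STAT5A and STAT5B. STAT5B in turn drives transcription of Igf1, Igfals, Socs2 and Cish. IGF1 made by the liver circulates mostly in a complex with IGFBP3 and the acid-labile subunit, whereas SOCS2 and CISH restrain signalling at the receptor, and SOCS3 is induced mainly by cytokines of the IL-6 family through STAT3. The pituitary releases GH in pulses in male mice and more evenly in female mice, and the liver expresses different genes under the 2 patterns.

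The total count was between 13378445 and 15976339 per library, and 3 counts, the limit that a count of 0 allows, corresponded to between 0.176 and 0.269 CPM (read counts scaled to the normalized library size). This limit covers counting error only. Xist, which is transcribed from the inactive X chromosome, was at 0.764 and 1.73 CPM in ApAp1 and ApAp3 and at 289.6, 914 and 882 CPM in WT1, WT2 and WT3. The Y-linked gene Ddx3y had 1344 and 998 counts in ApAp1 and ApAp3 and 0, 0 and 1 counts in WT1, WT2 and WT3, and Eif2s3y, Uty and Kdm5d divided the libraries in the same way. The treatment and the sex of the animals as read from these genes therefore cannot be told apart in any comparison below, although the Methods name male mice. The summed level of 6 hepatocyte genes was 72280 and 124000 CPM in ApAp1 and ApAp3 and between 123800 and 169800 CPM in the saline libraries, so that ApAp1 alone lay below the saline range. Albumin (Alb), at 51540 and 89800 CPM with APAP and between 95100 and 129100 CPM with saline, did not overlap between the groups, but its log2 fold change of -0.70 (SE 0.59) did not pass the test (edgeR adjusted p = 0.512). The other 5 hepatocyte genes did not move alike. Of these, named after their values were seen, transthyretin (Ttr) had a log2 fold change of -1.64 (edgeR adjusted p = 0.0776; called by the other tools) and apolipoprotein Apoa1 one of 0.57 (edgeR adjusted p = 0.437), so that ratios to the summed genes follow mostly Alb. Summed Kupffer cell, sinusoidal endothelial and stellate cell markers overlapped between the groups, with 0 of 18 genes called by edgeR's quasi-likelihood test (2 at an unadjusted p under 0.05, and Marco by the other tools), whereas summed cholangiocyte markers were at 347 and 355 CPM with APAP and between 47.1 and 51.95 CPM with saline. Of these 5 markers, Sox9 and Spp1 rose, beside 3.7% of all genes tested. Spp1, at 276 and 313 CPM with APAP, made up most of the sum. The ductal marker Krt19 was at 23.6 CPM in ApAp1 but at 2.72 CPM in ApAp3, against up to 2.54 CPM with saline. Epcam was likewise at 8.23 and 2.41 CPM, against up to 2.34 CPM. Krt7 was at 6.29 and 2.10 CPM in ApAp1 and ApAp3, against up to 1.13 CPM with saline. These 5 genes were named after their values were seen. The liver is a mixture of cells, and fewer cells of a type and less RNA per cell cannot be told apart in it. The Methods state biological repeats for the experiments of the study, and the labels do not say which animal gave which library, so p-values measure the spread between these samples.

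In the APAP libraries, the transcripts of the GH receptor and of the acid-labile subunit were lower and that of Socs3 was higher than with saline. Treatment and the sex read from Xist and the Y-linked genes cannot be told apart in these differences. Ghr was at 29.3% and Igfals at 12.9% of their saline means, whereas Socs3 was 4.09-fold higher. The other 7 genes did not pass the test, which was the quasi-likelihood test of edgeR, adjusted over all 13734 genes by the method of Benjamini and Hochberg, and is the source of every adjusted p given below unless another tool is named. Thus 3 of the 10 genes were called, beside 7.23% of all genes tested. Of these 1 rose, beside 3.7% of all genes tested, and 2 fell, beside 3.53%. The saline and APAP libraries did not overlap in 6 of the 10 genes (44.1% of all genes tested), with 1 gene higher (24% of all genes tested) and 5 genes lower with APAP (20.1% of all genes tested). By an unadjusted p under 0.05 with a fold change of at least 1.5, the limits the study used, 5 of the 10 genes passed, beside 23.5% of all genes tested. The median log2 fold change of the 10 genes was -0.759, and that of all genes tested was 0.0304. Scaled to library size only, these medians were -0.367 and 0.419, and the same 3 genes passed in the same directions.

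**Figure D1:**
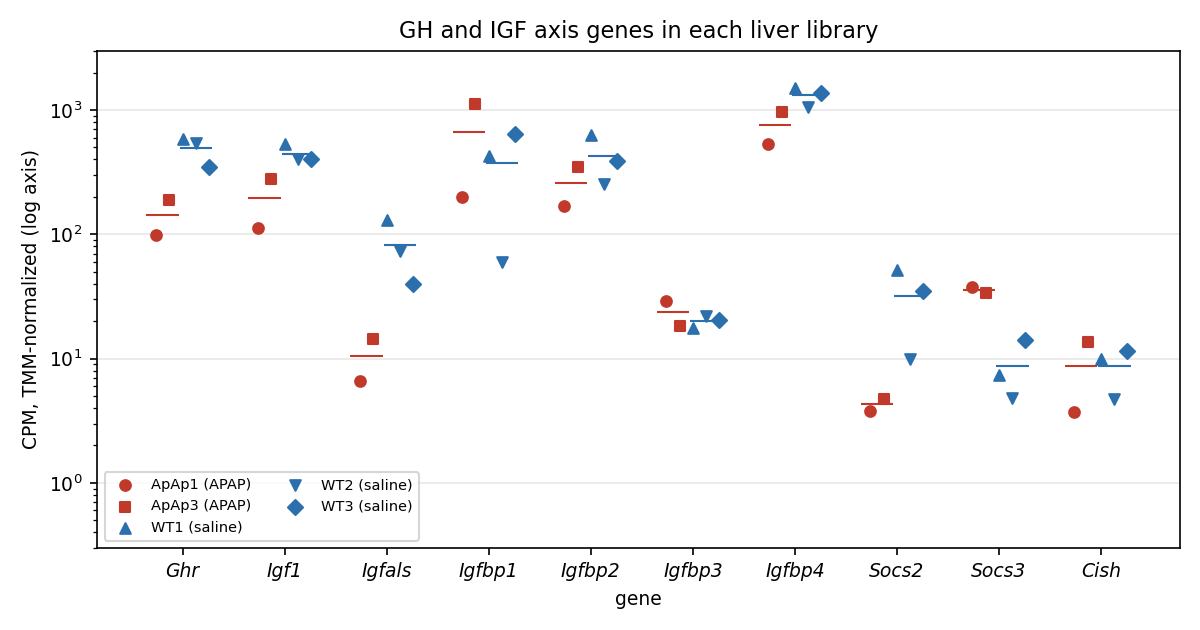
Level of each of the 10 genes in each library, in CPM normalized by TMM on a log axis, with APAP libraries in red, saline libraries in blue, and a horizontal line at the mean of each group (n = 2 and n = 3). Ghr, Igf1, Igfals, Igfbp4 and Socs2 lie lower and Socs3 lies higher in ApAp1 and ApAp3 than in every saline library, while Igfbp1, Igfbp2, Igfbp3 and Cish overlap between the groups.

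The receptor stands at the head of the axis. Ghr (ENSMUSG00000055737, chr15:3317760-3583492, minus strand, GRCm38) was at 98.0 and 190.3 CPM in ApAp1 and ApAp3 and at 585.2, 547 and 346 CPM in WT1, WT2 and WT3. The groups did not overlap, and the higher APAP library lay well below the lowest saline library, WT3. The mean was 144 ± 65.3 CPM (SD, n = 2) with APAP and 493 ± 128 CPM (SD, n = 3) with saline, for a fitted log2 difference of -1.77 (SE 0.40, edgeR adjusted p = 0.0466). The call was close to the threshold and was lost with 4 of the 5 libraries left out, at an edgeR adjusted p of 0.229 without ApAp1, 0.0632 without ApAp3, 0.0964 without WT1 and 0.151 without WT2. Leaving out an APAP library leaves 1, which is then assumed to vary like the saline libraries. The log2 fold change was between -2.34 and -1.37 in these fits. In a comparison added after the data had been seen, the log2 ratio of Ghr to the 6 hepatocyte genes differed by -1.17 (APAP minus saline), and the libraries still did not overlap.

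Igf1, the hormone itself, and Igfals, the liver protein that retains IGF1 in the blood, come next in the axis. Igf1 (ENSMUSG00000020053, chr10:87858265-87937042, plus strand) was at 113 and 278 CPM in ApAp1 and ApAp3 and at 528, 403 and 404 CPM in WT1, WT2 and WT3. The groups did not overlap, but the APAP libraries differed from each other by 2.46-fold, more than the saline libraries did (1.31-fold). The means were 195.5 ± 117 CPM (SD, n = 2) and 445 ± 72.2 CPM (SD, n = 3), and the log2 fold change of -1.19 (SE 0.41) did not pass the test (edgeR adjusted p = 0.137). It was -0.675 without ApAp1 and -1.99 without ApAp3, and DESeq2 gave an adjusted p of 0.0268. The antisense gene Igf1os, which overlaps Igf1, had at most 21 counts in a library.

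Igfals also fell. Igfals (ENSMUSG00000046070, chr17:24878770-24882008, plus strand) was at 6.64 and 14.4 CPM in ApAp1 and ApAp3 and at 131, 73.9 and 39.95 CPM in WT1, WT2 and WT3. The saline libraries spread over 3.28-fold, a wider spread than 90.5% of genes tested, and the lowest of them remained above both APAP libraries. The mean was 10.5 ± 5.49 CPM (SD, n = 2) with APAP and 81.6 ± 46.0 CPM (SD, n = 3) with saline. The fitted ratio was 7.75-fold lower with APAP, a log2 fold change of -2.95 (SE 0.60, edgeR adjusted p = 0.0350). The call was lost without ApAp1 (edgeR adjusted p = 0.191), without ApAp3 (0.0694), without WT1 (0.0605) and without WT2 (0.104), with a log2 fold change between -3.63 and -2.43. Relative to the 6 hepatocyte genes, the difference in log2 ratio of Igfals was -2.26, without overlap.

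Promoter windows of 250 bases before the RefSeq start (GRCm38.p6) were searched for the STAT motif TTCNNNGAA and the forkhead motifs GTAAACA and CAAAACA on both strands. A window was found for 9 of the 10 genes (13 windows, all but Socs2), and 4 windows of 3 genes held a match. Of 32851 such windows of all genes, 7.02% held TTCNNNGAA, 3.17% held GTAAACA and 5.56% held CAAAACA. One of the 3 Igfals windows, at chr17:24877981-24878230 on the plus strand, is shown because Igfals fell and because the window holds both a STAT and a forkhead match. Its capitals mark TGTTTAC, the reverse complement of GTAAACA, which begins 242 bases before the start, and TTCCTAGAA, which begins 58 bases before it.
Igfals: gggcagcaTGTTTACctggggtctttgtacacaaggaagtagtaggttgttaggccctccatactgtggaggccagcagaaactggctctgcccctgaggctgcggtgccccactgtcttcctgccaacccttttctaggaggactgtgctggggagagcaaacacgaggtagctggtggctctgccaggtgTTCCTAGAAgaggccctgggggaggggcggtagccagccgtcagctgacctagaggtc
This start lies 539 bases upstream of the gene start in the count table, and the end of the window overlaps the first exon of a non-coding Igfals transcript in GENCODE M21. Another Igfals window, at chr17:24877594-24877843, holds TTCTCAGAA 236 bases before its start, and the remaining Igfals window holds none of the motifs. No match was found in the windows of Ghr, Igf1, Igfbp2, Igfbp3, Igfbp4 and Cish. A match of letters is a description of the sequence and not a measured site.

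Of the 4 binding proteins, 0 passed edgeR's quasi-likelihood test, 0 had an unadjusted p under 0.05, and 0 passed edgeR's likelihood ratio test, edgeR's exact test or DESeq2. Igfbp1, a fasting- and insulin-regulated protein that holds IGF1 in an inactive form, varied most of the 10 genes within each group. Igfbp1 (ENSMUSG00000020429, chr11:7197782-7202546, plus strand) was at 199 and 1121 CPM in ApAp1 and ApAp3 and at 424, 59.7 and 638 CPM in WT1, WT2 and WT3. The groups overlapped, and the saline libraries alone spread over 10.7-fold, a wider spread than 98.7% of genes tested. The log2 fold change was 0.82 (SE 0.98, edgeR adjusted p = 0.655), and it turned to -0.92 without ApAp3, the library with the highest level. Its window, at chr11:7197537-7197786 on the plus strand, is shown for the forkhead match in a gene known as a target of FOXO1. The capitals mark CAAAACA, which begins 108 bases before the RefSeq start.
Igfbp1: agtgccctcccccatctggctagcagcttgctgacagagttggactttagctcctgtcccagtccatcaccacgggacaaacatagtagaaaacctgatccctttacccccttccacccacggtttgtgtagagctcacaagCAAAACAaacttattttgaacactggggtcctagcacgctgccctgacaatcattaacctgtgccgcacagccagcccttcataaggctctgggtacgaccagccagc
In these libraries the level of Igfbp1 did not separate the groups.

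Igfbp2, a binding protein that is abundant in liver and blood, and Igfbp4, an inhibitor of IGF action, were the highest of the 10 genes per kilobase with saline. Igfbp2 (ENSMUSG00000039323, chr1:72824503-72852474, plus strand) was at 170.5 and 348 CPM in ApAp1 and ApAp3 and at 635, 253 and 386 CPM in WT1, WT2 and WT3. The libraries overlapped, with WT2 below ApAp3 (log2 fold change -0.71, SE 0.48, edgeR adjusted p = 0.409). Igfbp4 (ENSMUSG00000017493, chr11:99041244-99054392, plus strand) was at 532 and 973 CPM in ApAp1 and ApAp3 and at 1512, 1062 and 1372 CPM in WT1, WT2 and WT3. Both APAP libraries lay below the saline range, ApAp3 only just, and the log2 fold change of -0.81 (SE 0.36) did not pass the test (edgeR adjusted p = 0.225). Relative to the 6 hepatocyte genes, the difference in log2 ratio was -0.06 for Igfbp2 and -0.22 for Igfbp4. Igfbp3 (ENSMUSG00000020427, chr11:7206086-7213923, minus strand), the main carrier of IGF1 in blood, which in liver is made largely outside hepatocytes, was at 28.9 and 18.2 CPM in ApAp1 and ApAp3 and at 17.75, 22.2 and 20.6 CPM in WT1, WT2 and WT3. These levels overlapped, and the saline libraries differed by 1.25-fold (log2 fold change 0.22, SE 0.26, edgeR adjusted p = 0.643). The fitted value was -0.14 without ApAp1. Igfbp1 and Igfbp3 lie end to end on chromosome 11 with 3539 bases between them.

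The make-up of the 4 binding protein transcripts, on the scale of CPM per kilobase, overlapped between the groups. Igfbp1 took 31.7% and 58.2% of their sum in ApAp1 and ApAp3 and 23.8%, 7.54% and 38.7% in WT1, WT2 and WT3. Igfbp4 took 33.7% and 20.1% in ApAp1 and ApAp3 and 33.9%, 53.4% and 33.1% in WT1, WT2 and WT3. WT2 was thus the library with the least Igfbp1 and the most Igfbp4, and ApAp3 the one with the most Igfbp1 and the least Igfbp4. Igfbp2 took between 21.1% and 41.7% and Igfbp3 between 0.596% and 2.89%.

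**Figure D2:**
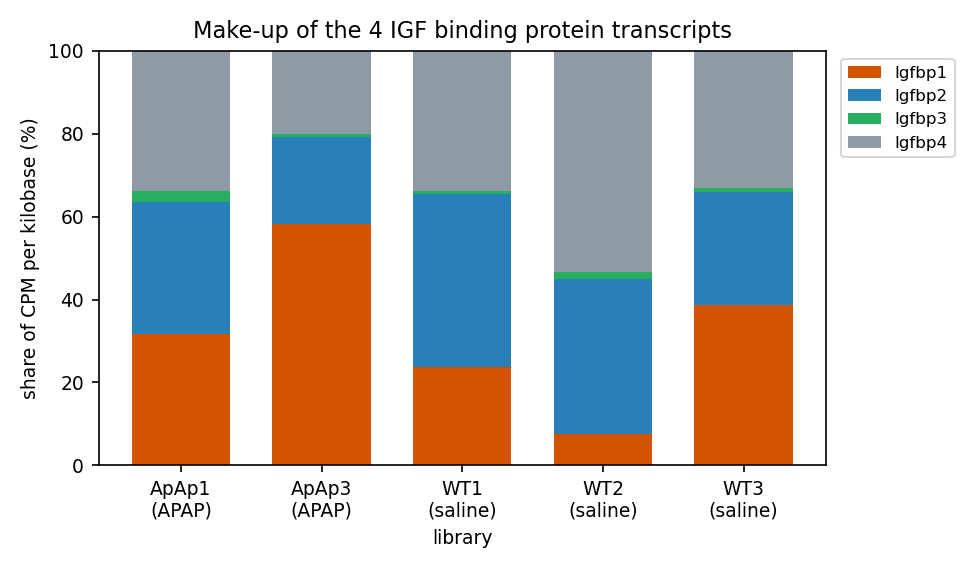
Share of each binding protein transcript in the sum of the 4, in percent of CPM per kilobase of transcript, with 1 bar per library. Igfbp1 ranges from 7.54% in WT2 to 58.2% in ApAp3, and Igfbp3 stays at or below 2.89% in all 5 libraries.

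The 3 SOCS genes encode inhibitors of cytokine receptor signalling. Socs2 (ENSMUSG00000020027, chr10:95385362-95417180, minus strand), the feedback inhibitor of the GH receptor, was at 3.82 and 4.76 CPM in ApAp1 and ApAp3 and at 51.5, 9.83 and 35.0 CPM in WT1, WT2 and WT3. Both APAP libraries lay below WT2, the lowest saline library, while the saline libraries spread over 5.24-fold, more than 95.7% of genes tested. The mean was 4.29 ± 0.665 CPM (SD, n = 2) with APAP and 32.1 ± 21 CPM (SD, n = 3) with saline. The log2 fold change of -2.90 (SE 0.68) missed the threshold narrowly (edgeR adjusted p = 0.0513). It passed under 7 of the 13 other settings with a test, among them DESeq2 size factors in place of TMM (edgeR adjusted p = 0.0495), DESeq2's own test (adjusted p = 7e-05) and the fit without WT2 (edgeR adjusted p = 0.0224). Of the 50-base words of Socs2, 18.4% also occur in the similar genes Gm8000 and Gm9847, of which Gm9847 had 11 and 14 counts with APAP and 75, 33 and 102 counts with saline, so the count of Socs2 is uncertain to that extent. Relative to the 6 hepatocyte genes, the difference in log2 ratio of Socs2 was -1.97, without overlap.

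Socs3 was the gene of the axis that rose. Socs3 (ENSMUSG00000053113, chr11:117966079-117970047, minus strand) was at 38.0 and 33.7 CPM in ApAp1 and ApAp3 and at 7.35, 4.78 and 14.1 CPM in WT1, WT2 and WT3. Both APAP libraries lay above the saline range and differed from each other by 1.13-fold. The mean was 35.85 ± 3.06 CPM (SD, n = 2) with APAP and 8.74 ± 4.81 CPM (SD, n = 3) with saline, for a fitted log2 difference of 2.03 (SE 0.42, edgeR adjusted p = 0.0374). The call was lost without ApAp1 (edgeR adjusted p = 0.167), without ApAp3 (0.0966), without WT1 (0.0971) and without WT2 (0.0953), with a log2 fold change between 1.73 and 2.57. Relative to the 6 hepatocyte genes, the log2 ratio of Socs3 was 2.82 higher with APAP without overlap. Summed neutrophil markers were also higher with APAP, at 90.02 and 57.4 CPM, against between 1.99 and 4.21 CPM with saline. Of the 7 neutrophil markers listed, 5 were tested and 5 rose, beside 3.7% of all genes tested. Ly6g and Camp had 0 counts in all 3 saline libraries. S100a8, Retnlg, Cxcr2 and Camp passed the filter on low counts only through the APAP libraries. With so few saline counts, they could enter the test only as higher genes. The part of neutrophils in the level of Socs3 was not tested.

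The RefSeq window of Socs3, at chr11:117969367-117969616 on the minus strand, is shown because Socs3 rose and is a STAT3 target. The capitals mark TTCTTAGAA, a match to TTCNNNGAA that begins 154 bases before the RefSeq start.
Socs3: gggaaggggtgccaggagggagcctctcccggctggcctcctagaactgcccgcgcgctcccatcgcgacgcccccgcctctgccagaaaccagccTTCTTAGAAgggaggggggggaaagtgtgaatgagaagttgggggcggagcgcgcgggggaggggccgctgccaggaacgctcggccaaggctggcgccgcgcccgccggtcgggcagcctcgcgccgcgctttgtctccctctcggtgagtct
The start of this window lies inside the gene as listed in the count table, and part of the window overlaps the first exon of a non-coding Socs3 transcript in GENCODE M21.

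Cish (ENSMUSG00000032578, chr9:107296026-107302784, plus strand), a STAT5 target that also inhibits the receptor, was at 3.70 and 13.6 CPM in ApAp1 and ApAp3 and at 9.86, 4.72 and 11.4 CPM in WT1, WT2 and WT3. The APAP libraries enclosed the saline range. The log2 fold change was -0.0025 (SE 0.59, edgeR adjusted p = 0.999), and leaving out each library in turn gave values between -1.23 and 0.65. The antisense genes Gm17041 and Gm17040, which overlap Cish, had at most 8 counts in a library.

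**Figure D3:**
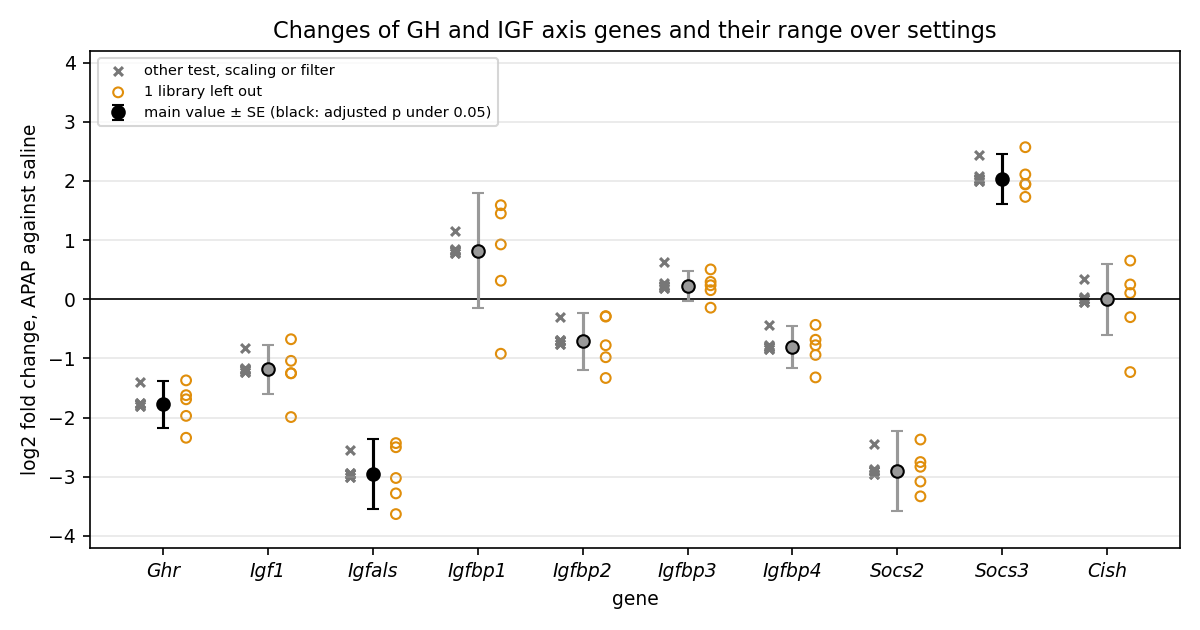
Log2 fold change of APAP against saline for each of the 10 genes, with the fitted value and its SE as a filled point (black where the adjusted p was under 0.05, grey otherwise), values under other tests, scalings and filters as crosses, and values with 1 library left out as open circles. Ghr, Igf1, Igfals, Igfbp2, Igfbp4 and Socs2 stay below 0 and Socs3 stays above 0 in all of these fits, while Igfbp1, Igfbp3 and Cish cross 0.

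Ratios of 2 genes within a library need no scaling factor. For 2 against 3 libraries an exact two-sided permutation test cannot go below p = 0.2, so none of the 6 ratios, all of counts, could pass a threshold of 0.05. The log2 ratio of Socs3 to Socs2 was 3.32 and 2.82 in ApAp1 and ApAp3 and -2.81, -1.04 and -1.31 in WT1, WT2 and WT3. Thus Socs3 had more counts than Socs2 in both APAP libraries and fewer in all 3 saline libraries, a mean difference of 4.79 (exact permutation p = 0.2, 0.4 after Benjamini-Hochberg adjustment over the 6 ratios). The log2 ratio of Socs3 to Cish was 3.36 and 1.31 with APAP and between -0.424 and 0.303 with saline. The log2 ratio of Igfals to Igf1 was -4.09 and -4.27 with APAP and -2.01, -2.45 and -3.34 with saline, so that Igfals was lower relative to Igf1 in both APAP libraries, by 1.58 on average (exact permutation p = 0.2, adjusted 0.4). The groups overlapped in the ratios of Igfbp1 to Igfbp3 (mean difference 0.71), of Igfbp1 to Igfbp4 (1.76) and of Socs2 to Ghr (-0.80). Socs2 to Ghr was lowest in the saline library WT2, at -5.8.

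**Figure D4:**
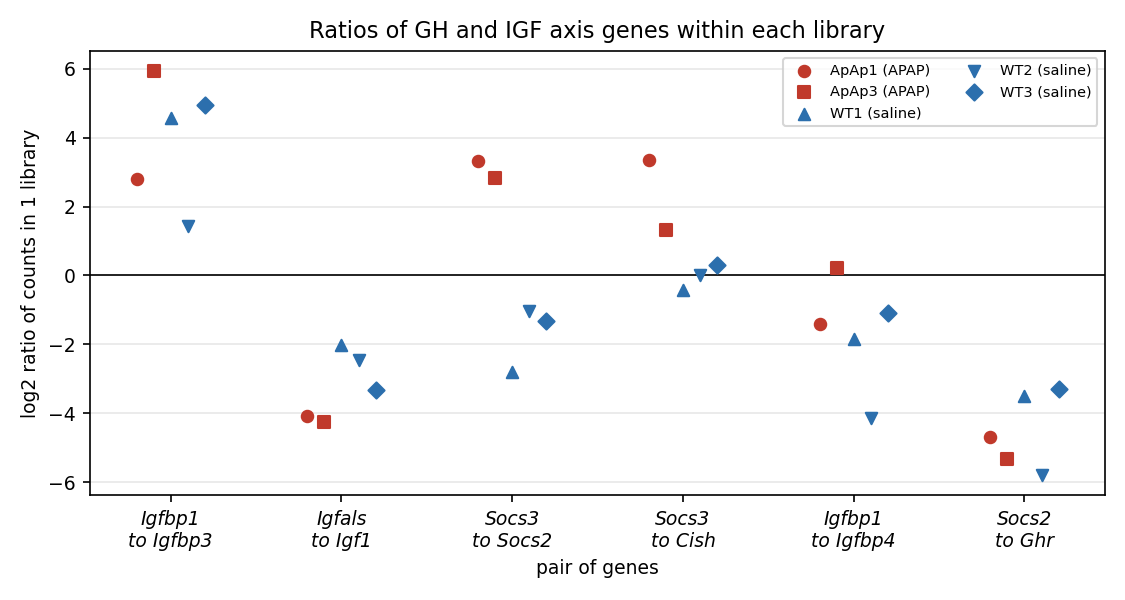
Log2 ratio of the counts of 2 genes within each library, for 6 pairs, with APAP libraries in red and saline libraries in blue. The libraries separate for Igfals to Igf1, Socs3 to Socs2 and Socs3 to Cish and overlap for the other pairs.

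The order of the 10 genes was read from CPM per kilobase of transcript. With saline, the mean levels were 343 for Igfbp4, 325 for Igfbp2, 245 for Igfbp1, 118 for Ghr, 63.1 for Igf1, 31.1 for Igfals, 14.5 for Socs2, 8.33 for Igfbp3, 3.43 for Socs3 and 3.04 for Cish, all in CPM per kilobase. Of the 9 pairs of neighbours in this order, the saline ranges were apart for Ghr and Igf1, for Igf1 and Igfals and for Igfbp3 and Socs3, and overlapped for the other 6. With APAP, Igfbp1 had the highest mean (433 ± 427 CPM per kilobase, SD, n = 2), Socs3 moved from rank 9 to rank 6, Igfals from rank 6 to rank 8 and Socs2 from rank 7 to rank 10. The APAP libraries were not alike in these genes, since 8 of the 10 were higher in ApAp3 than in ApAp1, beside 51.8% of all genes tested. Igfbp3 and Socs3 were the exceptions. ApAp1 was also the library with the lowest sum of hepatocyte genes, and the part of this in the levels of the axis was not tested.

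The genes around the 10, listed by their roles, were read in the same fit. Of 11 genes of the receptor's signalling, 2 fell, beside 3.53% of all genes tested, and 0 rose, beside 3.7%. Stat5b, which encodes the main STAT of the GH receptor in liver, was at 29.5 and 28.7 CPM in ApAp1 and ApAp3 and at 97.2, 85.0 and 80.4 CPM in WT1, WT2 and WT3. The groups did not overlap and each was tight (log2 fold change -1.59, SE 0.21, edgeR adjusted p = 0.00981), but the call was lost without ApAp1 (edgeR adjusted p = 0.0913), without ApAp3 (0.0642) and without WT2 (0.0558). Prlr, the prolactin receptor, a cytokine receptor closely related to Ghr, was at 36.0 and 62.9 CPM in ApAp1 and ApAp3 and at 432, 351 and 331 CPM in WT1, WT2 and WT3. It fell by 2.91 on the log2 scale (SE 0.34, edgeR adjusted p = 0.00681) and passed in all 13 other fits. Jak2, the receptor's kinase, was at 27.2 and 42.3 CPM with APAP and between 23.9 and 29.0 CPM with saline (log2 fold change 0.38, SE 0.25, edgeR adjusted p = 0.397). Stat5a was at 11.2 and 5.50 CPM with APAP and between 13.0 and 16.4 CPM with saline (log2 fold change -0.79, SE 0.34, edgeR adjusted p = 0.210).

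Of 5 regulators of sex-dependent liver genes downstream of GH, Cux2 fell, beside 3.53% of all genes tested, and the other 4 did not pass. Cux2, a repressor known to be expressed in female mouse liver, had 2 and 8 counts in ApAp1 and ApAp3 and 215, 79 and 89 counts in WT1, WT2 and WT3. Cux2 thus passed the filter on low counts only through the saline libraries and could enter the test only as a lower gene. Its log2 fold change was -5.02 (SE 0.91, edgeR adjusted p = 0.0263), and the call was lost without ApAp1 (edgeR adjusted p = 0.148), without ApAp3 (0.0665) and without WT2 (0.0646). Prlr is likewise known as a female-biased gene of mouse liver. For both genes, as for every other gene compared here, treatment and sex-linked expression cannot be told apart. Of 4 other SOCS genes tested (of 5 listed, Socs1 being too low to test) and of 11 other genes of the IGF system tested (of 15 listed), 0 passed edgeR's quasi-likelihood test. Among the SOCS genes 0 had an unadjusted p under 0.05 and 0 passed with another tool. Among the IGF system genes 1 was higher and 3 were lower at an unadjusted p under 0.05. By edgeR's likelihood ratio and exact tests and by DESeq2, 2 were lower. Over all genes tested, these tools called 869, 827 and 1155 lower. The 3 lower genes of the IGF system were Igf2, Irs1 and Irs2, at log2 fold changes of -1.35, -0.93 and -1.78 (edgeR adjusted p = 0.1995, 0.0789 and 0.0811). The 1 higher gene was Igf2r, at a log2 fold change of 0.52 (edgeR adjusted p = 0.158). These genes were named after their values were seen. Igf2 was low, at 10 and 9 counts with APAP and between 11 and 27 counts with saline. Igf1r, the receptor of IGF1, was near the limit of detection at 1.18 and 1.42 CPM with APAP and between 0.399 and 0.627 CPM with saline (log2 fold change 1.25, SE 0.55, edgeR adjusted p = 0.219). Insr, the insulin receptor, was at 140.5 and 102 CPM with APAP and between 149 and 184 CPM with saline (log2 fold change -0.43, SE 0.25, edgeR adjusted p = 0.331). In all, 3 of the 31 other pathway genes tested passed, a share of 9.68%, near the 7.23% of all genes tested. Each of the 3 was lower with APAP, and 3.53% of all genes tested were called lower. Of the 3, Cux2 could enter the test only as a lower gene. The list was not tested as a whole.

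**Figure D5:**
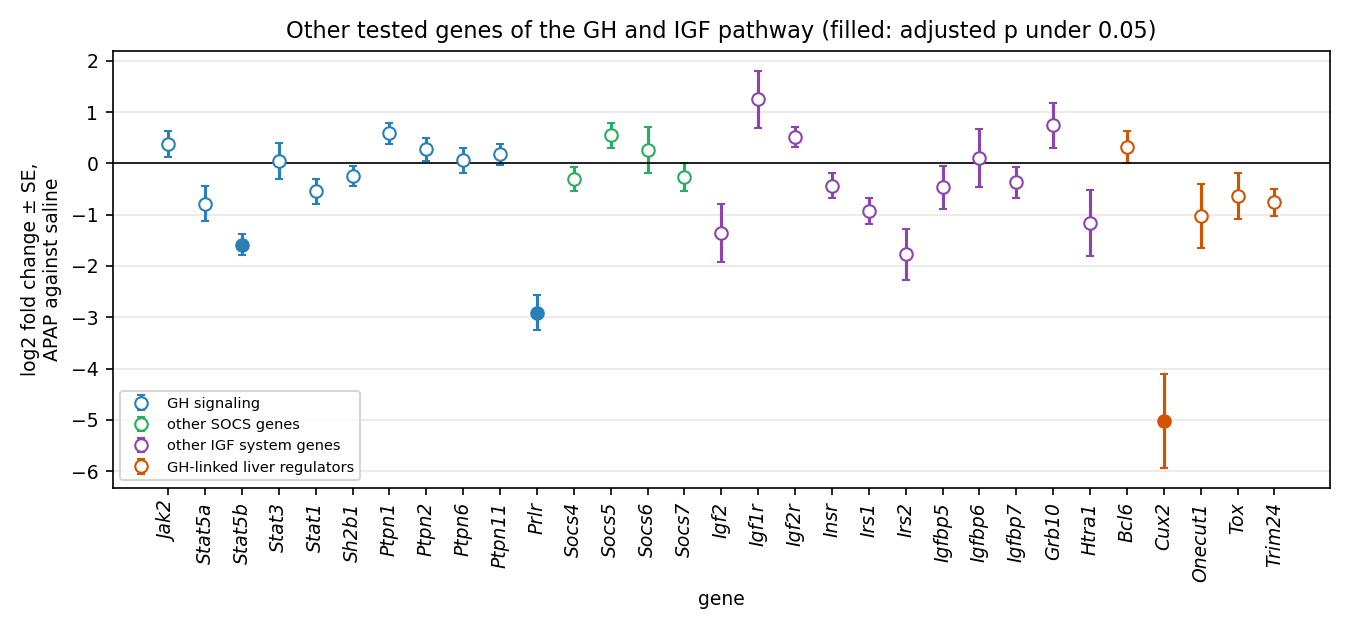
Log2 fold change with its SE, APAP against saline, for the other tested genes of the GH and IGF pathway, coloured by list and filled where the adjusted p was under 0.05. Stat5b, Prlr and Cux2 are filled and lie below 0.

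Genes of 3 programs that bear on these members were read as context. Of 12 tested genes of IL-6 type signalling and the acute phase response (of 13 listed), 4 rose, beside 3.7% of all genes tested. At an unadjusted p under 0.05, 5 were higher and 1 was lower with APAP. edgeR's likelihood ratio test, its exact test and DESeq2 each called 5 higher and 0 lower. Over all 13734 genes tested, these tools called 966, 949 and 938 higher and 869, 827 and 1155 lower, in this order. An unadjusted p under 0.05 with a fold change of at least 1.5 held for 23.5% of all genes tested. Osmr, the oncostatin M receptor, was at 16.6 and 13.4 CPM with APAP and between 2.51 and 5.18 CPM with saline (log2 fold change 1.87, SE 0.35, edgeR adjusted p = 0.0286, lost without ApAp1 at 0.156, without ApAp3 at 0.0729 and without WT2 at 0.0834). The serum amyloid gene Saa1 was at 2268 and 391.8 CPM with APAP and between 24.9 and 56.05 CPM with saline (log2 fold change 5.23, edgeR adjusted p = 0.0158, 3.48 without ApAp1, and lost without WT1 at 0.0605 and without WT2 at 0.0869), with Saa2, a close paralog that may share reads with it, at a log2 fold change of 5.28 (lost without the same 2 libraries). Lcn2, lipocalin 2, which neutrophils also make, was at 2045 and 661 CPM with APAP and between 9.50 and 62.1 CPM with saline (log2 fold change 5.60, edgeR adjusted p = 0.0231, lost without ApAp1, WT1 or WT2). Socs3 differed by 1.13-fold between ApAp1 and ApAp3. Saa1, Saa2 and Lcn2 were higher in ApAp1, Osmr differed less, and Hp was at 4812 and 5529 CPM in ApAp1 and ApAp3. Hp was named after its values were seen. The part of IL-6 type signalling in the level of Socs3 was not tested. Il6 itself had at most 5 counts in a library and was not tested.

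Of 8 genes of fasting and FOXO1, 0 passed edgeR's quasi-likelihood test. At an unadjusted p under 0.05, 1 was higher and 3 were lower with APAP. edgeR's likelihood ratio and exact tests each called 1 higher and 2 lower, and DESeq2 called 1 higher and 3 lower. Over all genes tested, these tools called the numbers given above, here and for the stress response genes below. The integrated stress response is a program that curbs translation under stress and is known to act on Igfbp1. Of 8 genes of this response, 2 rose, beside 3.7% of all genes tested. At an unadjusted p under 0.05, 5 were higher and 0 were lower with APAP. edgeR's likelihood ratio and exact tests each called 3 higher, and DESeq2 called 4 higher. Atf3, a transcription factor of this response, was at 195 and 110 CPM with APAP and between 1.33 and 3.67 CPM with saline (log2 fold change 6.01, edgeR adjusted p = 0.00219). Asns, asparagine synthetase, was at 8.40 and 16.2 CPM with APAP and between 0.269 and 0.535 CPM with saline (log2 fold change 4.81, edgeR adjusted p = 0.00404). Leaving out each library in turn gave log2 fold changes between 5.54 and 6.5 for Atf3 and between 4.25 and 5.21 for Asns. Asns, at 3, 7 and 8 counts in WT1, WT2 and WT3, passed the filter on low counts only through the APAP libraries. It could enter the test only as a higher gene. The levels of Igfbp1 overlapped between the groups, and the part of the integrated stress response in them was not tested.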

How the data were processed

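Liver RNA was extracted with TRIzol, and libraries were prepared with a SMARTer mRNA-Seq kit and sequenced on an Illumina NovaSeq. HISAT2 served the authors for alignment, and the deposited values used here are raw counts of reads per gene. The submitters' processing notes name GRCm38 and mm10. The annotation, strand setting and versions are not given in the sources used here. Of the listed genes, 34267 had an identifier in GENCODE M21 (GRCm38). The 5 columns of FPKM were not used, and reads carry no molecular identifiers.

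The tools were R 4.3.3 and edgeR 4.0.16. filterByExpr (minimum count 10, minimum total 15) kept 13734 genes, 14810 having no count in any library. TMM factors were between 0.783 and 1.27 and the biological coefficient of variation was 33.3%. The 2 groups were compared by edgeR's quasi-likelihood test and Benjamini-Hochberg adjustment, at an adjusted p under 0.05. The design was meant for 3 libraries in each group. The SE is the absolute log2 fold change divided by the square root of the test's F statistic. The procedure was tested on simulated data. Alternatives were DESeq2 1.42.0, the exact and likelihood ratio tests of edgeR, 3 other scalings, 2 other filters, another threshold and each library left out in turn. Transcript length was that of the longest protein-coding transcript in GENCODE M21, and reads shared between genes were estimated from words of 50 bases. Exact permutation tests were run in Python 3.11.15 with scipy 1.17.1.

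The genes and lists were chosen with earlier results of these data known. Named are all 10 genes of the axis and, of each pathway and context list but not of the cell marker lists, up to 4 genes with an adjusted p under 0.05 and the largest changes, with Jak2, Stat5a, Stat5b, Igf1r, Insr, Alb and the sex-linked genes whatever their values. Other genes named were chosen after their values were seen.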

Additional observations from a re-analysis of the deposited data

How the results depend on the processing

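No paired analysis was possible because the saline columns carry no sample's replicate number, so the replicate block was not run. The calls of Ghr, Igfals and Socs3 held under all 8 other tests, scalings and filters and rest on few libraries. Members called were 3, with 5 by DESeq2, 5 at an unadjusted p under 0.05 with a fold change of at least 1.5, 3 or 4 under the other settings, and between 0 and 3 with 1 library left out (0 without ApAp1, ApAp3 or WT1, 1 without WT2). Other pathway genes called were 3, with 5 by the likelihood ratio test, 5 by the exact test, 5 by DESeq2, 7 at the unadjusted threshold and between 1 and 3 with 1 library left out. Over all genes, 993 were called, with 1835 by the likelihood ratio test, 1776 by the exact test, 2093 by DESeq2, 3228 at the unadjusted threshold and between 165 (without WT2) and 922 with 1 library left out. The 508 higher and 485 lower genes became 966 and 869, 949 and 827, and 938 and 1155 with these 3 tests, 1042 and 297 at library size only, where the median of all genes shifted from 0.0304 to 0.419, and between 87 and 434 and between 78 and 488 with 1 library left out. Among uncalled genes, Igfbp1 turned to -0.92 without ApAp3 (range to 1.59 with each library left out) and Igfbp3 to -0.142 without ApAp1 (range to 0.505). Cish, at about 0, turned to 0.0303 with upper-quartile factors, 0.349 at library size only, 0.00354 without a filter, 0.00992 with at least 10 counts in every library, 0.654 without ApAp1, 0.106 without WT1 and 0.251 without WT3, with -1.23 as the lowest value with 1 library left out. The cause of these shifts was not tested. The ratio to hepatocyte genes was chosen after the data had been seen. It gave a log2 difference of -1.17 for Ghr, -0.676 for Igf1, -2.26 for Igfals, 1.54 for Igfbp1, -0.0604 for Igfbp2, 0.832 for Igfbp3, -0.215 for Igfbp4, -1.97 for Socs2, 2.82 for Socs3 and 0.449 for Cish. With 2 APAP libraries and a coefficient of variation of 33.3%, small changes were not detectable.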

Other observations

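Genes known to respond to the pattern of GH in mouse liver were read beside the axis, with the limit that sex-linked expression and treatment cannot be told apart. Of 12 female-biased genes, 12 were tested, and 12 were lower with APAP without overlap, beside 20.1% of all genes tested. In edgeR's quasi-likelihood test 9 fell, beside 3.53% of all genes tested, and 0 rose. The median log2 fold change of the 12 genes was -6.29. A1bg, Cyp2b13, Cyp3a41a, Hao2, Sult2a1, Sult2a2 and Sult3a1 passed the filter on low counts only through the saline libraries. Cyp2b13, for example, had 65 and 4 counts in ApAp1 and ApAp3. With so few counts under APAP, these genes could enter the test only as lower genes. The counts and the median above include them, so the shares of all genes tested are not a like comparison. The cytochrome P450 gene Cyp3a41a had 0 and 4 counts in ApAp1 and ApAp3 and 1651, 3523 and 3797 counts in WT1, WT2 and WT3. The sulfotransferase gene Sult2a1 had 5 and 5 counts in ApAp1 and ApAp3 and 3058, 6679 and 9819 counts in WT1, WT2 and WT3. Sult2a2 had 8 and 12 counts with APAP and 2639, 5922 and 6420 counts with saline. Sult3a1 had 2 and 5 counts with APAP and between 760 and 984 counts with saline. Sult2a1 and Sult2a2 are close paralogs, as Cyp3a41a and other Cyp3a genes are, and how reads were split between them is uncertain.

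Of 12 male-biased genes listed, 10 were tested and 0 passed edgeR's quasi-likelihood test. At an unadjusted p under 0.05, 4 were higher and 1 was lower. edgeR's likelihood ratio and exact tests and DESeq2 gave the same counts. Over all genes tested, these tools called 966, 949 and 938 higher and 869, 827 and 1155 lower, in this order. The summed level of the male-biased genes was 205 CPM in ApAp1 and 1483 CPM in ApAp3, against 369, 241.5 and 166 CPM in WT1, WT2 and WT3. ApAp1 thus lay within the saline range and ApAp3 above it, but the genes in the sum did not move alike. In ApAp1, Slco1a1 was at 0 CPM, against between 17.6 and 97.9 CPM with saline. Cyp2d9 was at 73.0 CPM in ApAp1, against up to 60.7 CPM with saline. Both were named after their values were seen. Mup20, a major urinary protein gene named after its values were seen, was at 97.95 CPM in ApAp1, 1045 CPM in ApAp3 and between 53.8 and 90.6 CPM with saline (log2 fold change 3.09, edgeR adjusted p = 0.0745). Mup20 made up most of the summed level in ApAp3. It shares sequence with a large gene family, so its count is uncertain. The largest change among the male-biased genes tested was that of Cyp4a12a (log2 fold change 5.85, edgeR adjusted p = 0.0597). Cyp4a12a had 14 and 402 counts in ApAp1 and ApAp3 and 0, 7 and 2 counts in WT1, WT2 and WT3. It passed the filter on low counts only through the APAP libraries, so it could enter the test only as a higher gene. Cyp4a12a was also named after its values were seen.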
